A study of Arabidopsis thaliana with 12 samples.

Results

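The large (60S) subunit of the cytosolic ribosome is built on ribosomal RNA with many proteins, and in Arabidopsis thaliana each protein is encoded by a small family of paralogous genes. The genes described here encode the proteins P0 to P2 and L3 to L18a. They were taken as a list of 60 loci, and a gene is a member when the platform annotation gives it a probe set that names no other gene and that probe set had a signal of 16 or more on at least 2 of the 12 arrays. Of the 60 loci, 42 had such a probe set and all 42 were kept, out of 8761 genes kept in the whole series. A further 4 loci are measured together in 2 shared probe sets, and 14 have no probe set named here, so proteins L3, L5, L10 and L11 are without a member. The rule for members used locus names and a minimum signal, and no difference between groups. The list itself was chosen with earlier results of these data known.

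The RNA came from seeds of stock N3742 in the Ler background, and the labels give no further allele for this stock. The groups were seeds given 5 µM gibberellin for 3 h, 6 h and 9 h and seeds given water for 3 h, 6 h and 9 h. Each group has 2 arrays, A and B, which makes 6 gibberellin and 6 water arrays. The labels do not say whether arrays A and B came from separate lots of seed, so each p-value measures the spread between these arrays, which may be technical.

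Gibberellin is the hormone that promotes germination, and a dry seed that takes up water resumes translation before it grows. The 60S subunit holds the peptidyl transferase centre, the tunnel through which the new chain leaves, and 2 mobile stalks. One stalk, of P0 and the acidic proteins P1 and P2 on a base formed with L12, recruits the translation factors that hydrolyse GTP. The other carries L10a and lies where spent tRNA leaves. Protein names follow the usual Arabidopsis nomenclature, since the annotation gives loci, with the symbol PGY1 for AT2G27530 as the exception among the members.

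The values are MAS5 signals on a linear scale. Differences are in log2 units, gibberellin minus water, from limma fitted to all 12 arrays, each ± its standard error (SE). An adjusted p is Benjamini-Hochberg corrected over 15779 probe sets, and a gene passed the test below 0.05. All tests are two-sided. The number of arrays limits precision: the median SE of the members was 0.27 at a single time and 0.156 for the average of the 3 times. The arrays also differ in their highest signal. It lay between 3308 and 3787 in array A of both treatments at 3 h and 6 h, against 6511 to 9143 in the remaining 8. A model with this signal ceiling as a block was fitted beside the main model. Of the 12 seed storage and maturation genes and the 5 endosperm genes listed to check the labelled tissue, 0 had a kept probe set of their own, so these markers could not check it. In whole seeds, fewer cells of a type and less RNA per cell cannot be told apart.

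Most members were among the brightest transcripts on the arrays. The median of their mean signals was 2696, against 72.3 for all kept probe sets, and 37 of the 42 lay in the top 5% of kept probe sets. The highest mean was that of AT3G09200, which encodes the stalk protein P0, at 5065. In 22 members the mean was 2500 or more, and in 38 it was 500 or more. The other 4 were dim: AT2G40010 (P0), AT3G28500 (P2), AT3G51190 (L8) and AT3G48960 (L13). The lowest mean was that of AT3G48960, at 14.5. Levels of different genes on one array also depend on how well each probe set hybridises, so these ranks describe the signals.

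Across the members the differences with gibberellin were small. At 3 h, 0 of 42 members passed, while 0.228% of all probe sets did. At 6 h, 0 of 42 members passed, while 1.48% of all probe sets did. At 9 h, 0 of 42 passed, while 7.47% of all probe sets did. For the average of the 3 times 1 of 42 passed, AT2G20450 (L14), and it was higher with gibberellin, while 11.6% of all probe sets passed and 5.98% passed as higher. At an unadjusted p under 0.05 there was 1 member at 3 h (2.38%, against 5.26% of all probe sets) and 1 at 6 h (2.38%, against 11.5%). There were 7 at 9 h (16.7%, against 22.2%) and 9 for the average (21.4%, against 25.5%). The share of members called was therefore not above that of all probe sets in these 4 comparisons. The main model leaves out the letters A and B. With the letter as a block, 3 of 42 members passed at 9 h (17% of all probe sets) and 8 for the average (21.8%). Passing also varied with mean signal. With a mean of 2500 or more, 0.645% of 155 probe sets and 0 of 22 members passed at 9 h and for the average. From 1500 to 2500, 6.08% and 8.29% of 181 probe sets passed, and 0 of 5 members. From 500 to 1500, 12.4% and 16.3% of 1040 probe sets passed, and 0 and 1 of 11 members.

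The signs of the differences were balanced early and mostly positive late. A positive difference was found in 19 of 42 members at 3 h, in 23 at 6 h, in 33 at 9 h and in 30 for the average. The medians were -0.03, 0.04, 0.24 and 0.06, while the median of all probe sets lay at -0.02, -0.01, -0.001 and -0.01. With quantile normalization in place of the deposited scaling, the counts were 27, 26, 31 and 30. The median at 3 h was then 0.11, so its sign depends on the scaling. Compared within letters, the median at 9 h was 0.12 between the A arrays and 0.31 between the B arrays, with 27 and 35 positive members. Over all probe sets these 2 medians were -0.05 and 0.04, with 46.9% and 52.5% positive. At 6 h the members' median was -0.07 between the A arrays and 0.12 between the B arrays (all probe sets -0.03 and 0.004). At 3 h it was -0.03 between the A arrays and 0.03 between the B arrays (all probe sets -0.01 and -0.02). The members share arrays, and their joint sign was not tested.

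**Figure D1:**
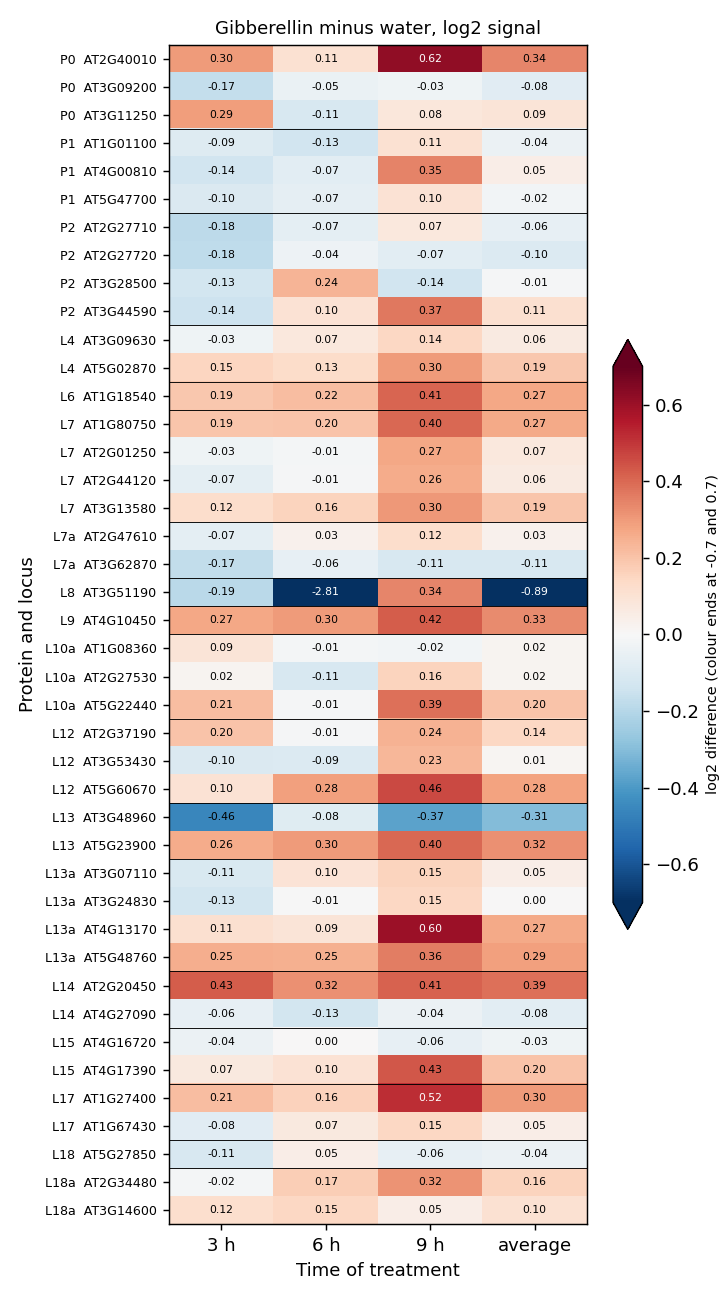
Heat map of the log2 difference, gibberellin minus water, of the 42 members (rows, grouped by protein) at 3 h, 6 h and 9 h and for the average (columns). Red is higher and blue lower with gibberellin; 33 of 42 values are positive at 9 h, and the value of -2.81 for AT3G51190 comes from signals near the floor.

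Both gibberellin arrays lay above both water arrays at 3 h in 7 members, where 14.5% of all probe sets did so. They lay below in 2 members, where 15.9% of all probe sets did so. At 6 h this held for 6 members above (20.3% of all probe sets) and for 2 below (21.7%). At 9 h it held for 19 members above (25.0% of all probe sets) and for 0 below (25.3%). Over the whole series, all 6 gibberellin arrays lay above all 6 water arrays in 2 members, AT2G20450 (L14) and AT5G23900 (L13), where 3.19% of all probe sets did so. At 3 h and 6 h the members' counts are near or under the background, and at 9 h, where all 4 arrays have the high ceiling, the count above exceeds it and the count below is under it. Array B of gibberellin at 9 h had the highest signal of these 4, 9143, against 7028 to 7359 in the others. Without it, 26 of 42 members had a positive 9 h difference, with a median of 0.087. Without gibberellin array A, 39 did (median 0.33). Without water array A or B, 33 and 37 did (medians 0.21 and 0.24).

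L14 is a protein of the solvent side of the 60S subunit that exists in archaea and eukaryotes, and both of its genes were measured. AT2G20450 had signals of 998 and 1146 at 3 h, 979 and 1252 at 6 h and 1173 and 1208 at 9 h in gibberellin. In water it had 807 and 785 at 3 h, 950 and 827 at 6 h and 849 and 945 at 9 h. The 6 gibberellin values did not overlap the 6 water values. The average difference was 0.39 ± 0.107 (limma, adjusted p = 0.037), a fold of 1.31, with 0.43 at 3 h, 0.32 at 6 h and 0.41 at 9 h. With the signal ceiling as a block its adjusted p was 0.013. When each of the 12 arrays was omitted in turn, it passed in 2 fits, which lacked array A of the gibberellin group at 3 h or at 6 h. In the other 10 it did not pass, with an adjusted p of up to 0.107. It also did not pass within the 8 arrays of the high ceiling (0.52 ± 0.141, adjusted p = 0.0888), which hold array B alone of each group at 3 h and 6 h. The brighter paralogue AT4G27090 had 2900 and 4387, 2637 and 4709, and 4070 and 4760 at 3, 6 and 9 h in gibberellin, and 2930 and 4707, 3050 and 4855, and 4290 and 4774 in water. Its 6 differences between arrays of the same letter and time were all negative, from -0.21 to -0.0043. It was the sole such case among the members, while 7 members had 6 positive differences. The share of all probe sets with 6 differences of the same sign was not computed, so these counts have no background. The average of AT4G27090 was -0.08 ± 0.204 (95% interval -0.52 to 0.37).

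The exit tunnel is lined in part by L4 and L17, and both genes of each were measured. AT1G27400 (L17) had 2107 and 2031 at 3 h, 2130 and 2597 at 6 h and 2603 and 3008 at 9 h in gibberellin. Water arrays gave 1658 and 1920 at 3 h, 2027 and 2185 at 6 h and 1951 and 1954 at 9 h. The groups did not overlap at 3 h or 9 h, and all 6 differences within a letter were positive. Its 9 h difference was 0.52 ± 0.193 (limma, adjusted p = 0.133) and its average 0.30 ± 0.111 (adjusted p = 0.114). With the signal ceiling as a block both passed (adjusted p = 0.0369 at 9 h and 0.0303 for the average). The second L17 gene, AT1G67430, had a mean signal of 4539 and an average of 0.05 ± 0.212. Of the L4 genes, AT5G02870 had an average of 0.19 ± 0.162 and AT3G09630 one of 0.06 ± 0.161, and neither passed. In both L4 genes the gibberellin arrays lay above the water arrays at 9 h.

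Of the GTPase stalk, the 3 P0 genes differ widely in signal. The bright gene AT3G09200 had gibberellin signals of 2960 and 6472 at 3 h, 3100 and 6242 at 6 h and 4822 and 6266 at 9 h. The water signals were 3758 and 6436, 3461 and 5981, and 5031 and 6256. The letters A and B differed more than the treatments, and the average was -0.08 ± 0.259 (95% interval -0.65 to 0.48). AT3G11250 had 751 and 727, 684.9 and 631, and 632 and 739 in gibberellin, and 641 and 566, 736 and 685.2, and 642 and 651 in water. Its gibberellin arrays lay above the water arrays at 3 h, below them at 6 h and on both sides of them at 9 h. AT2G40010 stayed between 61.3 and 109 in gibberellin and between 52.5 and 79.8 in water, with 0.62 ± 0.27 at 9 h (limma, adjusted p = 0.203).

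The acidic stalk proteins P1 and P2 had averages near 0. For P1 they were -0.04 ± 0.198 (AT1G01100), 0.05 ± 0.128 (AT4G00810) and -0.02 ± 0.115 (AT5G47700). At 3 h the gibberellin arrays of AT4G00810 and AT5G47700 lay below the water arrays, with differences of -0.14 and -0.10. At 9 h AT4G00810 had 1309 and 1980 in gibberellin against 1404 and 1139 in water, which overlap. The P2 averages were -0.06 (AT2G27710), -0.10 (AT2G27720), 0.11 (AT3G44590) and -0.01 (AT3G28500). AT3G44590 had 2135 and 2711 at 9 h in gibberellin, above 1820 and 1900 in water. Its 9 h difference was 0.37 ± 0.23 (limma, adjusted p = 0.391).

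L12, at the base of that stalk, has 3 measured genes, and the dimmest had the largest difference at 6 h, at 9 h and for the average. AT5G60670 had 1318 and 1483 at 3 h, 1470 and 1687 at 6 h and 1841 and 2059 at 9 h in gibberellin. In water it had 1265 and 1341 at 3 h, 1265 and 1321 at 6 h and 1478 and 1348 at 9 h. The groups did not overlap at 6 h and 9 h. The differences were 0.46 ± 0.178 at 9 h (limma, adjusted p = 0.145) and 0.28 ± 0.103 for the average (adjusted p = 0.103). Both passed with the signal ceiling as a block (adjusted p = 0.0499 at 9 h and 0.0312 for the average). AT2G37190 averaged 0.14 ± 0.147 and the brightest gene, AT3G53430, 0.01 ± 0.156.

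The other mobile stalk carries L10a. PGY1 (AT2G27530), known from mutants that alter leaf polarity, had an average of 0.02 ± 0.221, and AT1G08360 one of 0.02 ± 0.159. The dimmer AT5G22440 had 1552 and 2104 at 9 h in gibberellin against 1312 and 1459 in water, without overlap. Its 9 h difference was 0.39 ± 0.216 (limma, adjusted p = 0.335) and its average 0.20 ± 0.125.

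Among the proteins of the body of the subunit, L6 and L9 each had 1 member. AT1G18540 (L6) had 1968 and 1913 at 3 h, 2158 and 2464 at 6 h and 3096 and 2704 at 9 h in gibberellin. With water the signals were 1601 and 1814, 1988 and 1984, and 2182 and 2183. Its gibberellin arrays lay above the water arrays at each of the 3 times. The average was 0.27 ± 0.106 (limma, adjusted p = 0.134), and it passed with the signal ceiling as a block (adjusted p = 0.0426). The probe set shared by the other L6 genes, AT1G74050 and AT1G74060, gave an average of 0.16 ± 0.131.

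L9 lies near the factor-binding site. AT4G10450 had 1178 and 1177 at 3 h, 1440 and 1495 at 6 h and 1352 and 1581 at 9 h in gibberellin. The water arrays had 971 and 984, 1362 and 1045, and 1123 and 1061. Its arrays too were separate at each of the 3 times. The average of 0.33 ± 0.107 missed the threshold (limma, adjusted p = 0.0703) and passed with the signal ceiling as a block (adjusted p = 0.0261). The probe set shared by AT1G33120 and AT1G33140 gave 0.05 ± 0.204.

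The L7 family has 4 measured genes and the L7a family 2. AT1G80750 (L7) had 866 and 1075, 841 and 956, and 898 and 1277 at 3, 6 and 9 h in gibberellin, and 804 and 888, 753 and 810, and 774 and 846 in water. All 6 differences within a letter were positive, and the average was 0.27 ± 0.119 (limma, adjusted p = 0.188). The average was 0.19 ± 0.121 for AT3G13580, 0.06 ± 0.131 for AT2G44120 and 0.07 ± 0.16 for AT2G01250. Of the L7a genes, AT2G47610 averaged 0.03 ± 0.171 and AT3G62870 -0.11 ± 0.216, the most negative value of a member with a mean signal of 500 or more.

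L8, a protein close to the peptidyl transferase centre, had a single dim member. AT3G51190 had 12.5 and 2.51 at 6 h in gibberellin against 36.5 and 42.3 in water, and 26.4 and 47.1 at 9 h in gibberellin against 31.7 and 24.4 in water. These signals lie around the minimum used for the filter. The 6 h difference of -2.81 ± 0.778 did not pass (limma, adjusted p = 0.126). At 9 h the difference was 0.34.

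L13 and L13a are unrelated proteins despite their names. AT5G23900 (L13) had 1357 and 1292, 1218 and 1434, and 1480 and 1337 at 3, 6 and 9 h in gibberellin. In water it had 1096 and 1116, 1214 and 951, and 1169 and 973. The 6 gibberellin values were all above the 6 water values. The average of 0.32 ± 0.111 missed the threshold (limma, adjusted p = 0.0901) and passed with the signal ceiling as a block (adjusted p = 0.0396). The second L13 gene, AT3G48960, stayed between 6.07 and 19.1 in gibberellin and between 10.5 and 28 in water.

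The 4 L13a genes fall into a bright and a dim pair. AT4G13170 had 920 and 1144 at 3 h, 953 and 1080 at 6 h and 1080 and 1658 at 9 h in gibberellin. In water it had 938 and 958, 870 and 1042, and 888 and 878. The groups overlapped at 3 h and 6 h and were separate at 9 h, where array B alone reached 1658. Its 9 h difference of 0.60 ± 0.222 did not pass (limma, adjusted p = 0.133) and lay between 0.29 and 0.91 when 1 array was left out. AT5G48760 had 0.36 ± 0.212 at 9 h and an average of 0.29 ± 0.122 (adjusted p = 0.167). The bright pair, AT3G07110 and AT3G24830, averaged 0.05 ± 0.151 and 0.00 ± 0.167.

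L15, L18 and L18a complete the families. AT4G17390 (L15) had 2489 and 3611, 2709 and 4524, and 4041 and 5038 at 3, 6 and 9 h in gibberellin, and 2553 and 3196, 2980 and 3573, and 3105 and 3599 in water. The groups were separate at 9 h, with a difference of 0.43 ± 0.29 (limma, adjusted p = 0.435). Its paralogue AT4G16720 had -0.06 ± 0.359 at 9 h. AT5G27850 (L18) had an average of -0.04 ± 0.174. For L18a, AT2G34480 averaged 0.16 ± 0.155, with separate groups at 9 h, and AT3G14600 averaged 0.10 ± 0.118.

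**Figure D2:**
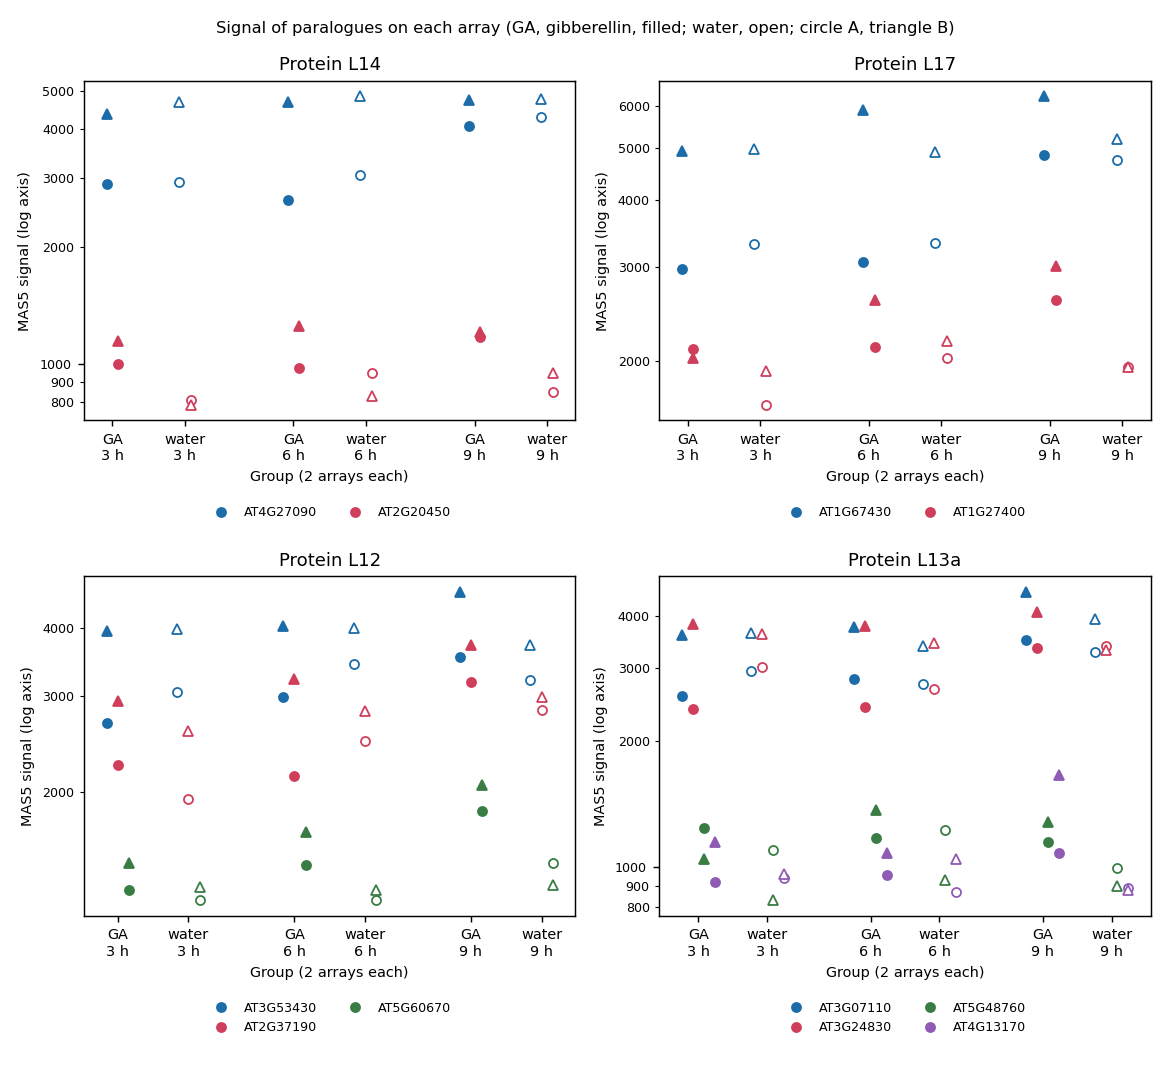
MAS5 signal (log axis) of each measured gene of proteins L14, L17, L12 and L13a on each of the 12 arrays, with gibberellin (filled) left of water (open) at each time, circles for array A and triangles for array B. AT2G20450 is higher on all 6 gibberellin arrays than on all 6 water arrays, while in the bright genes the A and B arrays of a group stand further apart than the treatments at 3 h and 6 h.

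Within a protein family the dimmer paralogue mostly had the larger difference. In 14 protein families the ratio of each dimmer gene to the brightest one was taken on every array, which gives 24 pairs. In 21 pairs both genes had a signal of 100 or more on every array, and in 17 of these the dimmer gene had the larger average difference. The median change of the ratio was 0.14 on the log2 scale. In 4 pairs the ratio was higher with gibberellin in all 6 differences between arrays of the same letter and time. They were AT2G20450 over AT4G27090 (L14, average 0.46), AT5G60670 over AT3G53430 (L12, 0.27), AT4G17390 over AT4G16720 (L15, 0.23) and AT5G22440 over PGY1 (L10a, 0.18). In 0 of the 24 pairs were the 6 gibberellin ratios separate from the 6 water ratios. Pairs of the same family share the brightest gene, so these counts are not independent. No such share was computed for other pairs of genes. A ratio within an array describes an unequal change of signal and does not say which gene changed. At 3 h and 6 h the highest signal of array A was 3308 and 3411 in gibberellin, against 3760 and 3787 in water. Whether these ceilings affect the ratios to the brightest gene was not tested.

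Among the 38 members with a mean signal of 500 or more, the average difference was smaller in brighter ones, and the 4 dim members did not follow this. Those 4 had a median of -0.16, with 1 positive. The 11 members with a mean signal of 500 to 1500 had a median average difference of 0.27, and all 11 were positive, against a median of -0.02 over 1040 probe sets in that range. The 5 members of 1500 to 2500 had a median of 0.11, against 0.04 for all 181. The 22 members of 2500 or more had 0.02, with 14 positive, against -0.03 for all 155. At 9 h the 3 medians of the members were 0.40, 0.37 and 0.14, and those of all probe sets -0.01, 0.09 and 0.04. Over the 38 members with a mean signal of 500 or more, the correlation of log2 mean signal with the average difference was -0.70 by Pearson's r and -0.69 by Spearman's rho. Over all 42 it was 0.32 by Pearson's r and -0.42 by Spearman's rho. This is a description across genes that share arrays, and it carries no p. Of these 38 members, 8 had a 95% interval of the average that left out 0, where 25.5% of all probe sets had an unadjusted p under 0.05, and over all 38 the bounds ran from -0.65 to 0.62. Whether the signal ceiling sets this relation was not tested.

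**Figure D3:**
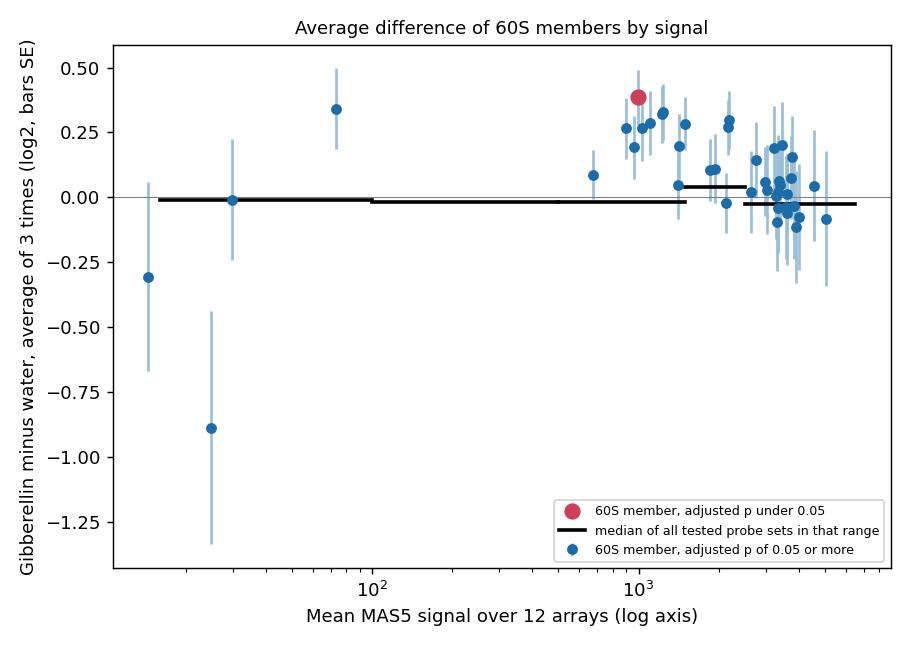
Average log2 difference, gibberellin minus water (points, bars ± SE), of the 42 members against their mean MAS5 signal over 12 arrays (log axis). Black lines give the median of all tested probe sets in each signal range; the 11 members between 500 and 1500 all lie above 0, and the 22 members at 2500 or more scatter around 0.

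In each of the 6 groups the median member was brighter in array B than in array A. At 3 h and 6 h, array B exceeded array A by a median of 0.40 and 0.42 over the members in gibberellin, and by 0.31 and 0.26 in water. At 9 h, where both arrays have the high ceiling, the gap was 0.25 in gibberellin and 0.07 in water. Over all kept probe sets the gap lay between -0.09 and 0.02 in the 6 groups. For members with a mean of 2500 or more it was 0.55 and 0.65 in gibberellin and 0.46 and 0.42 in water at 3 h and 6 h. The members' share of the summed signal of an array was 2.6% to 2.74% in the 4 arrays of the low ceiling and 3.08% to 3.72% in the other 8.

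**Figure D4:**
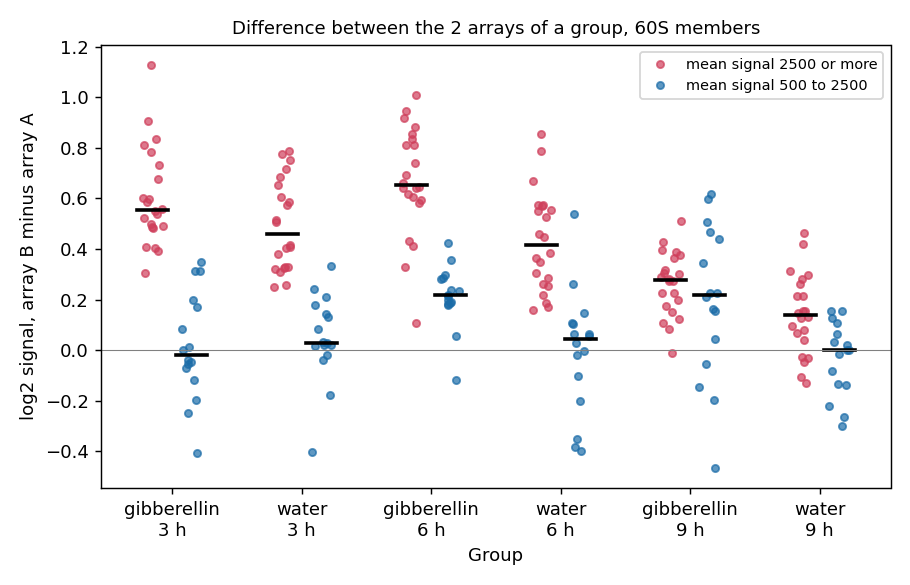
Difference in log2 signal between arrays B and A of each group for the members with a mean signal of 2500 or more (red) and of 500 to 2500 (blue), with gibberellin left of water at each time and black lines at the medians. In the bright members the median gap is 0.55 and 0.65 in gibberellin and 0.46 and 0.42 in water at 3 h and 6 h, and 0.28 in gibberellin and 0.14 in water at 9 h.

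The comparisons over time carry this ceiling, because the low arrays lie at 3 h and 6 h. In gibberellin, 40 of 42 members were higher in sign at 9 h than at 3 h, with a median of 0.34, and 0 passed, while 0.488% of all probe sets did. In water, 33 of 42 were positive with a median of 0.16, and 0 passed, as did 0% of all probe sets. At an unadjusted p under 0.05, limma gave 4 members in gibberellin, where 13.04% of all probe sets did, and 0 in water, where 2.07% did. With quantile normalization 27 members were positive in gibberellin, with a median of 0.058, and 23 in water, with a median of 0.024. With the signal ceiling as a block the median was 0.15 in gibberellin, with 33 positive, and -0.04 in water, with 16 positive. The sign of the median in water therefore differed between the 2 models. The change of the gibberellin effect between the times, at 9 h minus at 3 h, was positive in 36 of 42 members with a median of 0.19, and in 27 with quantile normalization. Of the 42 members 0 passed, while 0.0127% of all probe sets did, and 0 had an unadjusted p under 0.05, where 6.81% of all probe sets did. These comparisons share arrays with those between treatments.

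In the other parts of the translation machinery, listed by locus, every gene that passed at 9 h or for the average was higher with gibberellin. Of the 33 measured genes of the remaining 60S proteins, 4 passed at 9 h and all 4 were higher, with a median of 0.31 over the list. They were AT5G67510 (L26, 0.98 ± 0.162), AT4G26230 (L31, 0.86 ± 0.209), AT3G16780 (L19, 0.82 ± 0.178) and AT2G39390 (L35, 0.64 ± 0.172). Of 40 genes of the small (40S) subunit, 3 passed at 9 h, all higher, with a list median of 0.21. They were AT4G30800 (S11, 1.51 ± 0.27), AT3G10610 (S17, 0.80 ± 0.168) and AT4G34555 (S25, 0.59 ± 0.162). Of 12 ribosome biogenesis genes, 3 passed at 9 h, all higher, with a list median of 0.57. The largest difference of these 3 was that of AT3G05060 (0.72 ± 0.192), a homologue of the nucleolar protein NOP58 of yeast. Of 5 translation factor genes, EIF4A-2 (AT1G54270), an RNA helicase of initiation, passed at 0.88 ± 0.183. For the average, 4 of 33, 3 of 40, 4 of 12 and 1 of 5 passed, all higher. The share was 12.1% for the remaining 60S list, 7.5% for the 40S list and 20% for translation factors in both comparisons. For ribosome biogenesis it was 25% at 9 h and 33.3% for the average. These shares stand beside 7.47% of all probe sets at 9 h and 11.6% for the average, with 3.78% and 5.98% passing as higher. The total share of the 40S list was thus near that of all probe sets at 9 h and under it for the average. The shares are of measured genes alone. Those were 33 of 62 listed genes of the remaining 60S proteins and 40 of 81 of the 40S subunit. For ribosome biogenesis they were 12 of 37, and for translation factors 5 of 35. That the members differ from these lists was not tested.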

How the data were processed

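The authors deposited linear intensity values for 12 one-colour Affymetrix arrays, made with MAS5 per the submitters' processing notes (version not given in the sources used here). The authors scaled all arrays to a common trimmed mean, as the deposited values show, so a change in all RNA of a seed would not show. Of 22810 probe sets, 64 controls were left out, and 15779 with a signal of 16 or more on at least 2 arrays were kept. The platform annotation names 1 gene for 13513 of the 22746, several for 503 and none here for 8730. Paralogues with similar sequence may share signal, which was not tested.

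Signals were taken to log2 without an offset or further normalization. limma 3.58.1 in R 4.3.3 fitted 6 group means to all 12 arrays (6 residual degrees of freedom, prior degrees of freedom 5.53, intensity trend), and 7 contrasts were drawn from it. The procedure was tested on simulated data. Every member may be named; of the other lists, up to 4 passing genes were. The members and lists were chosen with earlier results of these data known. The alternatives were other scalings, offsets, filters and variance models, the replicate letter and the signal ceiling as blocks, and fewer arrays. The differences within a letter were added after seeing the data.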

Additional observations from a re-analysis of the deposited data

Results flagged for a closer look

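AT3G11250, 1 of the 3 genes of the stalk protein P0, is singled out because its groups were separate in opposite directions at different times. At 3 h both gibberellin arrays (751 and 727) lay above both water arrays (641 and 566), with a log2 difference of 0.29 ± 0.165. At 6 h the gibberellin arrays (684.9 and 631) lay below the water arrays (736 and 685.2), with -0.11 ± 0.165, and the nearest arrays stood at 684.9 and 685.2. The effect at 6 h minus that at 3 h was -0.41, and this difference was not tested. The effect at 9 h minus that at 3 h, which was tested, was -0.21 ± 0.234 (limma, adjusted p = 0.918). Among all probe sets, 14.5% lay above and 15.9% below at 3 h, and 20.3% above and 21.7% below at 6 h.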

How the results depend on the processing

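Signals near the floor and 2 arrays per group limit what these data show, and the 4 dim members have wide intervals. Outside the fits that left out 1 array, 133 of 152 values of the counts and medians moved by less than the spread between replicates or stayed within 1.5 times the main count. The main counts were 0 in every comparison but the average, and most stayed at 0. The spread for the medians rests on 2 values, from the A arrays and from the B arrays. The tally is therefore a weak check of stability.

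The members that passed for the average, 1 in the main model, numbered 6 with the signal ceiling as a block (2687 of 15779 probe sets), 2 with quantile normalization (1910 of 15779) or a minimum signal of 64 (1857 of 9573), and 0 with median centring, with no filter, without an intensity trend or within the 8 arrays of the high ceiling. In limma AT2G20450 had adjusted p = 0.0782 with median centring, 0.06 with no filter, 0.0734 without the trend and 0.0888 within those 8 arrays. At 9 h, 2 members passed with the ceiling as a block (1996 probe sets in all), AT1G27400 and AT5G60670. At 6 h, 1 passed within the 8 arrays (66 of 15779 probe sets), AT3G51190; this sets 1 gibberellin array against 1 water array, with signals near the floor, and assumes that they vary like the 9 h arrays. AT3G09200 had a positive average of 0.013 within the 8 arrays. The cause of these differences was not tested.

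The median difference of the members at 3 h was 0.11 with quantile normalization and 0.033 within the 8 arrays. For 9 h against 3 h in water it was -0.042 with the ceiling as a block. For 9 h against 3 h in gibberellin it was 0.058 with quantile normalization and 0.15 with the block or within the 8 arrays.

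When 1 array was left out, the medians lay between -0.18 and 0.21 at 3 h, -0.20 and 0.30 at 6 h, 0.087 and 0.33 at 9 h and 0.016 and 0.16 for the average. They lay between 0.0083 and 0.39 for the effect at 9 h minus that at 3 h, -0.011 and 0.32 for 9 h against 3 h in water and 0.15 and 0.56 in gibberellin. Leaving out array A or B at 3 h or 6 h unbalances the ceiling between the groups, while the arrays at 9 h all have the high ceiling. The count for the average was 0 or 1, and 0 in every other comparison. In these fits AT2G20450 averaged 0.33 to 0.44, AT3G62870 -0.26 to 0.038, AT2G27720 -0.24 to 0.046 and AT3G09200 -0.27 to 0.11. At 9 h AT3G28500 ran from -0.64 to 0.37, AT2G27720 from -0.15 to 0.0014 and AT5G27850 from -0.21 to 0.091.

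The letters A and B were not treated as pairs. Over all kept probe sets, deviations of same-letter arrays correlated between 0.0764 and 0.275 over the 15 pairs of groups (members -0.0925 to 0.776). Between gibberellin and water at 3 h, 6 h and 9 h the values were 0.275, 0.168 and 0.102 (members 0.776, 0.295 and 0.278). These give no ground for leaving the letter out, so the main counts may be low. With the letter as a replicate block, 8 members passed in limma for the average (all probe sets 3444 instead of 1833), 3 at 9 h (2688 instead of 1178), 1 at 6 h (856 instead of 233) and 2 for 9 h against 3 h in gibberellin (1024 instead of 77). All were higher except AT3G51190 at 6 h. Among them are AT1G80750 (adjusted p = 0.0344) and AT5G48760 (adjusted p = 0.0494) for the average and AT4G13170 at 9 h (adjusted p = 0.0173), which did not pass in the main model or with the ceiling as a block. Alternatives with probe sets that name a listed locus beside unlisted genes were not run, because 0 such probe sets were found.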
